A study of Mus musculus with 6 samples.

Results

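The 8 genes described here, Ttr, Kl, Folr1, Clic6, Kcne2, Otx2, Kcnj13 and Slc4a5, mark the epithelium of the choroid plexus. They were chosen by name, and all 8 are among the 10989 genes of the deposited table. The choroid plexus is a folded tissue in the brain ventricles, in which a layer of epithelial cells surrounds a core of leaky capillaries, fibroblasts and macrophages. The epithelium secretes cerebrospinal fluid by moving sodium, chloride and bicarbonate from the blood side to the ventricle side, with water following, and it releases carrier proteins and hormones into the fluid. Its tight junctions form the barrier between blood and cerebrospinal fluid, so it is a barrier of epithelial cells, whereas the blood-brain barrier is built by endothelial cells.

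All 6 libraries came from brain of mice labelled Tie2-cre+; NuTRAP+, with WT in every title. Cre turns on the NuTRAP reporter, and cells with it then carry EGFP on their ribosomes and mCherry on their nuclei. The Tie2 promoter is active in endothelium and also in part of the blood cell lineage. The 3 Input libraries hold RNA of the dissociated brain suspension, and the 3 Positive libraries hold RNA of the sorted endothelial gate (EGFP positive, CD31 positive, CD11b negative). Each fraction has 1 library with each of the replicate numbers 1222, 1223 and 1227, and no age of the mice is given in the labels. The summed estimated counts were 4814966 to 52283556 in Input and 4772866 to 23525401 in Positive, with replicate 1223 the shallowest in both fractions. As a check of the gate, all 10 endothelial markers examined were higher in Positive, and their summed level was 15940 to 16190 counts per 1000000 (CPM) there against 2030 to 2403 CPM in Input. The 10 include Pecam1, which encodes CD31, and Tek, which encodes Tie2. For these genes the check is not independent of the sort.

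All 8 choroid plexus genes fell in the sorted endothelial cells relative to the suspension, by 6.61-fold for Ttr and by 7.96-fold to 17-fold for the other 7, with a median log2 fold change of -3.55. For all 8, every Positive library lay below every Input library, which held for 32.6% of all genes. Over all 10989 genes 29.4% were called lower in Positive, 26.1% higher and 55.5% either way, and the median log2 fold change was 0.03. The deposited table kept a gene when all libraries of 1 fraction had at least 50 estimated counts. Folr1, Kcne2, Otx2 and Kcnj13 met that minimum in Input alone, which favours a fall, so a count over them adds no support; Ttr, Kl, Clic6 and Slc4a5 met it in both fractions. Levels are CPM scaled with TMM factors, tests are edgeR's quasi-likelihood test with Benjamini-Hochberg adjustment over all genes, and fold changes are given on the log2 scale with their standard error (SE). In bulk RNA, fewer choroid plexus cells and less of each RNA per cell cannot be told apart.

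**Figure D1:**
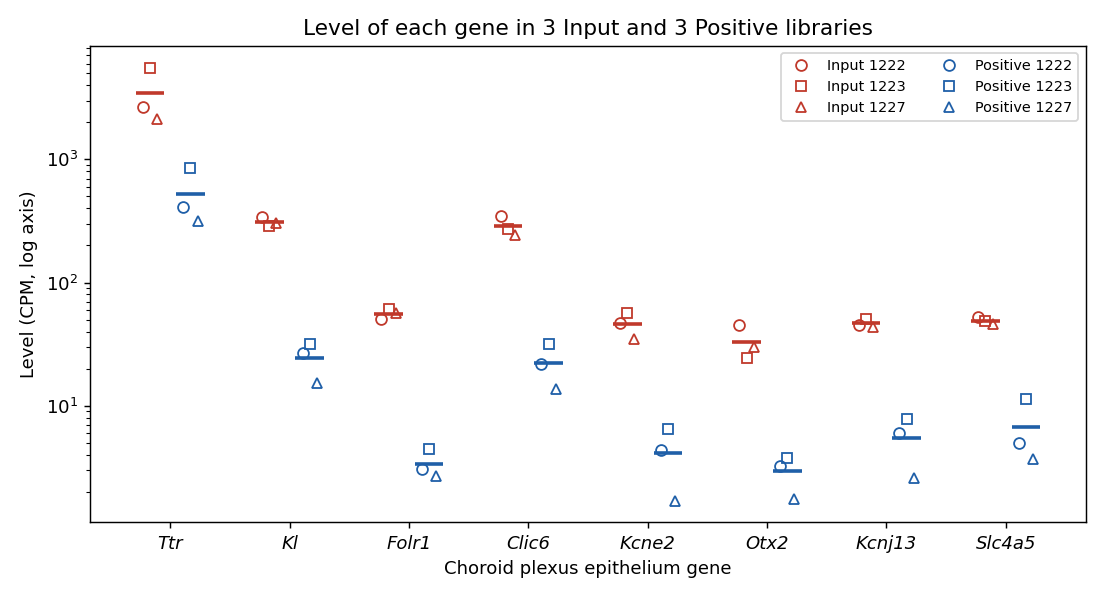
Level of each of the 8 genes (CPM, log axis) in the 3 Input libraries (red) and the 3 Positive libraries (blue); the symbol gives the replicate number and the bar the mean of the 3 libraries. Every red symbol lies above every blue symbol of the same gene, and within the blue symbols replicate 1223 is highest and 1227 lowest for all 8.

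Ttr encodes transthyretin, the carrier of thyroxine that the epithelium secretes into cerebrospinal fluid, and which in blood also carries retinol bound to its binding protein (chromosome 18, 20665250 to 20674326, plus strand, mm10). Its level was 2674, 5573 and 2146 CPM in Input replicates 1222, 1223 and 1227, and the Positive replicates had 408.2, 849.4 and 315.8 CPM. Replicate 1223 was the highest library in both fractions, and the fractions did not overlap. The means were 3465 ± 1850 CPM in Input and 524.5 ± 285 CPM in Positive (SD, n = 3). The log2 fold change was -2.73 ± 0.47 (SE; edgeR adjusted p = 0.00121). Ttr was the 4th to 21st most counted gene of the Input libraries and the 141st to 564th of the Positive libraries. It still took 0.0303% to 0.0803% of the counts of each Positive library, against 0.224% to 0.579% in Input, as shares of the counts of all genes in the table.

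Kl encodes klotho, a membrane and shed protein that serves as the co-receptor for the hormone FGF23 (chromosome 5, 150952607 to 150993817, plus strand). It stood at 342.2, 286.9 and 303.6 CPM in Input and 26.86, 31.49 and 15.36 CPM in Positive, in the order 1222, 1223, 1227. The Input values lay close together, and the Positive values spread over 2.05-fold. The log2 fold change was -3.68 ± 0.26 (edgeR adjusted p = 8.27e-06). Folr1 encodes folate receptor alpha, which carries folate across the epithelium into the fluid (chromosome 7, 101858331 to 101870788, minus strand). It had 50.34, 61.53 and 56.06 CPM in Input and 3.03, 4.434 and 2.7 CPM in Positive. Folr1 had the deepest fall of the 8, with a log2 fold change of -4.09 ± 0.22 (adjusted p = 3.3e-06), and 1.76% of all genes tested had a lower value.

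Clic6 and Kcne2 are both on chromosome 16. Clic6 (92498147 to 92541241, plus strand) encodes a member of the chloride intracellular channel family, and its level was 345.2, 273.5 and 241.1 CPM in Input and 21.71, 31.49 and 13.77 CPM in Positive. The log2 fold change was -3.72 ± 0.30 (edgeR adjusted p = 1.585e-05). Kcne2 (92292389 to 92298133, plus strand) encodes a small beta subunit that alters the gating of potassium channels such as Kcnq1. It had 47.01, 56.14 and 35.05 CPM in Input and 4.341, 6.43 and 1.694 CPM in Positive, a log2 fold change of -3.56 ± 0.43 (adjusted p = 0.000148). The Positive levels of Kcne2 spread over 3.79-fold, the widest of the 8, and rested on 96, 29 and 32 estimated counts. Rcan1, a calcineurin regulator, is the 1 other gene of the deposited table in the interval from Kcne2 to Clic6. It did not pass, with 65.6 ± 13.6 CPM in Input and 85.9 ± 4.81 CPM in Positive (log2 0.39 ± 0.17, adjusted p = 0.0791). It passed as higher with the replicate number as a block (log2 0.40, adjusted p = 0.0269), by limma on the deposited log2 values (0.48), without Input 1222 (0.57) and without both libraries of 1222 (0.52).

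Kcnj13 encodes the inward rectifier potassium channel Kir7.1 (chromosome 1, 87386284 to 87394729, minus strand). Its level was 45.61, 50.14 and 43.77 CPM in Input and 5.969, 7.76 and 2.595 CPM in Positive, a log2 fold change of -3.15 ± 0.35 (edgeR adjusted p = 9.6e-05). The gene lies inside Gigyf2, which is on the opposite strand, and in GENCODE vM21 623 of the 1270 exonic bases of Kcnj13 are also exonic in Gigyf2. The labels do not say whether the counting used strand, so reads of that stretch may be shared; Gigyf2 itself rose from 45.9 to 71.4 CPM (log2 0.63 ± 0.14, adjusted p = 0.00545), but did not pass without replicate 1227 in both fractions (log2 0.60). Slc4a5 encodes the sodium bicarbonate cotransporter NBCe2 of the ventricle-facing membrane (chromosome 6, 83237375 to 83304945, plus strand). It had 52.42, 48.75 and 46.17 CPM in Input and 5.02, 11.31 and 3.707 CPM in Positive, a log2 fold change of -2.99 ± 0.37 (adjusted p = 0.000164). Positive replicate 1223 was the highest of the 3, on 50.7 estimated counts.

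Otx2 encodes a homeodomain transcription factor needed for choroid plexus development and kept in the adult epithelium (chromosome 14, 48658184 to 48662872, minus strand). It was at 44.82, 24.57 and 29.85 CPM in Input and 3.256, 3.769 and 1.747 CPM in Positive, where it rested on 17 to 71.8 estimated counts. In GENCODE vM21 the lincRNA Otx2os1 on the other strand shares 154 of its 4221 exonic bases, and Gm49154 on the same strand 168. Its log2 fold change was -3.54 ± 0.36 (edgeR adjusted p = 5.49e-05). Input replicate 1222 was the highest library for Otx2, whereas Input 1223 was the highest for Ttr. Because Otx2 is itself a DNA-binding factor, the 6-letter core TAATCC that Otx proteins bind was searched on both strands in RefSeq promoter windows (GRCm38.p6; 250 bases before to 50 after a start site). Windows were found for 5 of the 8 genes (Kl, Kcne2, Otx2, Kcnj13 and Slc4a5, 9 windows in all). A match was present in 1 of the 9, at a start of Otx2 itself, against 7.06% of all 32851 windows and 5.47% of the 10733 windows of genes in the table. That window and the Kl window, which holds none, are shown 5′ to 3′ on the gene's strand, with the match in capitals (it reads as the core on the other strand); the letters alone do not show binding.
Otx2, chr14:48665060-48665359, minus strand: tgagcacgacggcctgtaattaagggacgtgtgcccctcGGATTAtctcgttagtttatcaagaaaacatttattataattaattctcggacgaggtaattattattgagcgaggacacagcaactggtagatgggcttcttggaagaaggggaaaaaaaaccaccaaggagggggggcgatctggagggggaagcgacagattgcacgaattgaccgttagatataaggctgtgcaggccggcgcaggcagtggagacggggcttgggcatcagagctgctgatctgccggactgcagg
Kl, chr5:150952357-150952656, plus strand: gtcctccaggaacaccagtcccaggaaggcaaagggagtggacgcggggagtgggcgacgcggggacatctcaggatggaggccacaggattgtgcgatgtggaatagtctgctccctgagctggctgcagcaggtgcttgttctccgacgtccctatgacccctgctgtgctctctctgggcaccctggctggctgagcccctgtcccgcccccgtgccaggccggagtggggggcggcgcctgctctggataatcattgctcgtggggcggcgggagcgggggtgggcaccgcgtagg

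The 8 genes shared an order among the Positive libraries. All 8 were highest in 1223, intermediate in 1222 and lowest in 1227, an order that 15.7% of all genes tested had. In Input 4 of the 8 were highest in 1222 and the other 4 in 1223. The level in Positive as a percent of Input was lowest in replicate 1227, at 4.82% to 8.03% for the 7 genes other than Ttr, against 6.02% to 13.1% in 1222 and 7.21% to 23.2% in 1223. The coefficients of variation of those 7 genes were 6.4% to 31.7% in Input and 27.2% to 60.8% in Positive, while the median over all genes was 15% in Input and 14.7% in Positive. These medians are not matched for level, and the part of low counts in the Positive spread of the 7 was not tested. In Input, Otx2 (31.7%), Kcne2 (23%) and Clic6 (18.6%) lay above the median of all genes and the other 4 below it. Positive 1223 was the shallowest of the 3 libraries, with 17 to 141.9 estimated counts for each of the 7. The summed level of the 10 endothelial markers was nearly equal in the 3 libraries (16190, 15940 and 15950 CPM in 1222, 1223 and 1227). The summed level of 7 border macrophage markers had another order (1947, 705.1 and 282.3 CPM), as did 10 oligodendrocyte markers (1282, 1025 and 1959 CPM). The part of any of these differences in the order of the choroid plexus genes was not tested.

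Ttr was left at a nearly even share. Its level in Positive was 15.3%, 15.2% and 14.7% of Input in 1222, 1223 and 1227, and the high Ttr of Input 1223 recurred in Positive 1223. The ratio of Ttr CPM to Kl CPM within a library, which is not adjusted for gene length, was 7.81, 19.4 and 7.07 in Input and 15.2, 27 and 20.6 in Positive. It was 1.94, 1.39 and 2.91 times as high in Positive as in the Input library of the same number. Clic6 kept closer to Kl, with ratios of 0.794 to 1.01 in Input and 0.808 to 1 in Positive. These ratios are described with no test.

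**Figure D2:**
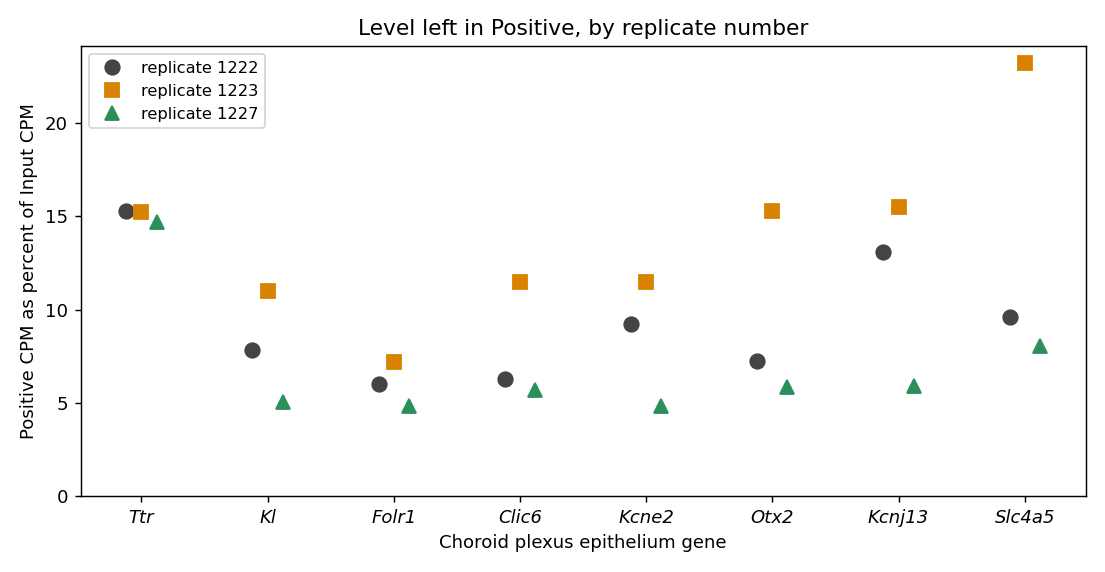
Level in Positive as a percent of the level in the Input library of the same replicate number, for each of the 8 genes; the symbol and colour give the number. Ttr is close to 15% in all 3, and for the other 7 genes replicate 1227 is lowest (4.82% to 8.03%) and 1223 highest.

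By a distance between log2 CPM profiles over the 6 libraries, each centred on its own mean, the genes whose pattern was closest to the mean of the 8 were Htr2c, Ust, Nol4, Sfrp1 and Zfp185. The search took genes with at least 50 estimated counts in every Input library and left out Gm, Rik and pseudogene names. Htr2c, the serotonin 2C receptor that is abundant on choroid plexus epithelium, was the nearest, at a distance of 0.174 log2 units, and the next 4 were at 0.338 to 0.356. The 8 genes themselves lay at 0.455 (Clic6 and Kcnj13) to 1.28 (Ttr) from their own mean. The 5 were picked as the nearest of many genes and the 8 were not, so these distances are not a like comparison. Htr2c was at 56.8, 59.7 and 47 CPM in Input and 5.43, 7.54 and 2.75 CPM in Positive (log2 -3.45 ± 0.33, edgeR adjusted p = 4e-05). All 5 genes met the deposited minimum in Input alone. Genes picked for this pattern fall by selection, so the test of Htr2c adds no support.

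The wider choroid plexus list held 83 other genes of the table, and 64 of them fell, 13 rose and 6 did not pass (median log2 fold change -2.31). Of the 83 genes, 27 met the deposited minimum in Input alone. Over all genes 29.4% were called lower and 26.1% higher. The share that rose was below 26.1% in the whole list and in each of its parts described below. The list was drawn up by name, and many of its genes are also active in other brain cells, endothelium included. Among secreted proteins and carriers 15 of 17 fell, with 5 of the 17 at the minimum in Input alone. The most abundant were Enpp2, the enzyme autotaxin (4179 ± 670 to 567.9 ± 119 CPM, log2 -2.88 ± 0.21), transferrin (Trf, -2.98 ± 0.32), the protease inhibitor Cst3 (-1.51 ± 0.13), the chaperone Clu (-2.25 ± 0.14) and the growth factor Igf2 (-1.38 ± 0.15). The 2 that rose were Cp, which encodes the copper protein ceruloplasmin (88.2 ± 1.99 to 383.9 ± 47.7 CPM, log2 2.12 ± 0.13), and Stra6, a receptor for the retinol binding protein that Ttr accompanies in blood (40.2 ± 7.11 to 210.8 ± 93 CPM, log2 2.38 ± 0.31).

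Among 31 genes of ion and water transport 21 fell, 7 rose and 3 did not pass, with 5 of the 31 at the deposited minimum in Input alone. Over all genes 29.4% were called lower and 26.1% higher, so the number that rose was near the share of all genes. The sodium pump subunit Atp1b2 (log2 -3.30 ± 0.27), the carbonic anhydrase Car2 (-2.55 ± 0.17), the sodium-potassium-chloride cotransporter Slc12a2 (-2.13 ± 0.20), the anion exchanger Slc4a2 (-1.67 ± 0.13) and the water channel Aqp1 (-2.82 ± 0.32) fell. Kcnq1, the pore subunit that Kcne2 can join, went the other way from Kcne2, from 6.2 ± 0.93 to 56.1 ± 7.18 CPM (log2 3.18 ± 0.20, edgeR adjusted p = 4.75e-06). Kcnq1 met the deposited minimum in Positive alone, which favours a rise. The labels do not say whether the counting used strand, so reads of its antisense partner may be included. The organic anion transporter Slc22a8 (log2 2.81 ± 0.20), the efflux pump Abcc4 (2.62 ± 0.15), the copper transporter Slc31a1 (1.26 ± 0.14), the amino acid transporter Slc6a20a (1.22 ± 0.31), the potassium-chloride cotransporter Slc12a7 (1.04 ± 0.16) and the cation channel Trpv4 (0.52 ± 0.17) also rose. The rise of Trpv4 did not pass with scaling to library size alone (log2 0.37), without Input 1223 (0.49), Input 1227 (0.49), Positive 1222 (0.46) or Positive 1227 (0.46), or without both libraries of 1222 (0.53) or of 1227 (0.42).

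Among 21 genes of junctions, adhesion and cell shape 19 fell, beside 29.4% of all genes called lower and 26.1% higher. However, 13 of the 21 met the deposited minimum in Input alone, which favours a fall. Col9a3 and Cldn2 are among those 13, and Igsf5 met the minimum in Positive alone, which favours a rise. The membrane linker Ezr (log2 -1.91 ± 0.12), the kinase scaffold Cab39l (-1.38 ± 0.16), the collagen Col9a3 (-3.74 ± 0.14), the sulfatase Sulf1 (-0.47 ± 0.13) and Cldn2, the pore-forming claudin of choroid plexus junctions (31.9 ± 4.25 to 4.55 ± 2.72 CPM, log2 -2.91 ± 0.40), were lower. The fall of Sulf1 did not pass without Input 1222 (log2 -0.40), Positive 1222 (-0.42), Positive 1227 (-0.44), both libraries of 1222 (-0.37) or both of 1227 (-0.45), or by limma on the deposited log2 values (-0.39). The junction protein Cgnl1 (152.5 ± 31.3 to 900.4 ± 124 CPM, log2 2.56 ± 0.19) and the adhesion protein Igsf5 (2.05 ± 0.39) rose. Of 14 receptors and transcription factors 9 fell, 2 rose and 3 did not pass, beside the same shares of all genes. The minimum was met in Input alone by 4 of the 14, Foxj1 among them. The cilia factor Foxj1 (log2 -4.44 ± 0.41), the peptidase Ace (-1.06 ± 0.20), Zic1 (-1.48 ± 0.16) and the homeobox factor Msx1 (-1.02 ± 0.29) fell, and basigin (Bsg, 2.29 ± 0.29) and the Notch target Hes1 (1.58 ± 0.25) rose. Msx1 did not pass without Positive 1227 (log2 -0.85), both libraries of 1222 (-0.78) or both of 1227 (-0.98).

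Close relatives of the 8 genes moved in both directions. Of the 17 relatives measured, 9 fell, 4 rose and 4 did not pass, beside 29.4% of all genes called lower and 26.1% higher. Among those that fell, 3 (Kcne1l, Slc4a1 and Slc4a3) met the deposited minimum in Input alone, which favours a fall. Clic6 was the 1 chloride intracellular channel gene that fell: Clic5 rose from 91 ± 15 to 681.8 ± 40.1 CPM (log2 2.91 ± 0.16, edgeR adjusted p = 3.26e-06), Clic4 from 752.8 ± 98.7 to 1896 ± 121 CPM (1.33 ± 0.15) and Clic1 from 102.6 ± 1.75 to 189.4 ± 1.22 CPM (0.88 ± 0.11). Clic4 and Clic5 are known from endothelium. For the inward rectifiers, Kcnj10, the main channel of astrocytes (931.1 ± 98.6 to 78.7 ± 22.2 CPM, log2 -3.55 ± 0.23), and its partner Kcnj16 (-2.86 ± 0.20) fell together with Kcnj13. Kcnj8, which marks pericytes, rose (12.9 ± 0.268 to 44.1 ± 6.15 CPM, log2 1.78 ± 0.17), and Kcnj2 (0.49 ± 0.27) and Kcnj12 (-0.09 ± 0.35, adjusted p = 0.844) did not pass; the value of Kcnj12 turned positive without Input 1223 or Positive 1222.

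**Figure D3:**
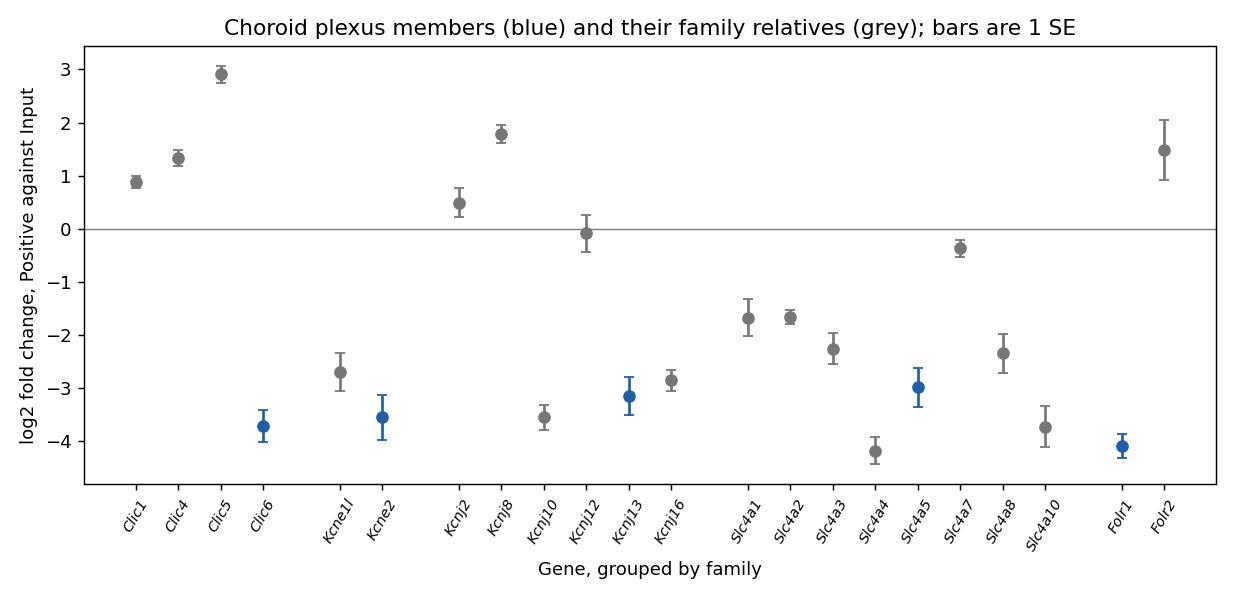
Log2 fold change of Positive against Input, with 1 SE, for the 5 members that have a relative in the table (blue) and for the relatives (grey), grouped by family. Clic6 lies below 0 and Clic1, Clic4 and Clic5 above it, whereas the genes of the Slc4 family all lie below 0.

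Of the 7 other bicarbonate transporter genes of the Slc4 family, 6 fell with Slc4a5. Slc4a1 and Slc4a3, which are among the 6, met the deposited minimum in Input alone, so their falls add no support. Slc4a4, the sodium bicarbonate cotransporter that is abundant in astrocytes, went from 622 ± 159 to 33.7 ± 6.95 CPM (log2 -4.19 ± 0.25), and Slc4a10, which is found in choroid plexus and neurons, from 109.1 ± 31.1 to 8.75 ± 4.58 CPM (-3.73 ± 0.39). Slc4a8 (-2.35 ± 0.36), Slc4a3 (-2.26 ± 0.29), Slc4a1 (-1.68 ± 0.35), which did not pass without both libraries of 1222 (-1.58), and Slc4a2 (-1.67 ± 0.13) also fell. Slc4a7 did not pass (-0.37 ± 0.16, edgeR adjusted p = 0.0764), and it passed as lower with the replicate block (-0.38) and with scaling to library size alone (-0.53). Kcne1l, the older symbol of Kcne5, fell (-2.70 ± 0.36), and it also met the minimum in Input alone. Folr2, which lies beside Folr1 and is found on macrophages, had 7.48, 10.6 and 8.31 CPM in Input and 46.1, 18.8 and 7.25 CPM in Positive. Positive 1222 was high and Positive 1227 overlapped Input, and Folr2 did not pass (log2 1.48 ± 0.57, adjusted p = 0.0551), but passed as higher with DESeq2 (1.46), without Positive 1227 (1.93) and without both libraries of 1227 (1.88). Its value was 0.53 without Positive 1222, 0.42 without both libraries of 1222 and 1.10 with the replicate block, and it did not pass in any of these. The summed level of the border macrophage markers followed the same order of Positive libraries as Folr2, as given above. Ccr2, 1 of those markers, did not (1.85, 0.887 and 3.18 CPM in Positive 1222, 1223 and 1227).

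Genes that act with the 8 were described from lists chosen by name. Over all genes 29.4% were called lower and 26.1% higher, and the folate count below is near those shares. The deposited minimum was met in Input alone by 3 of the 11 thyroid hormone and retinol genes. It was met in Input alone by 2 of 7 genes for Kl, Fgfr2 included, and by 2 of 11 for folate, Slc46a1 included. For thyroid hormone and retinol, which Ttr carries, 6 of 11 genes fell, 4 rose and 1 did not pass. Slco1c1, a thyroid hormone transporter of brain endothelium, rose from 542 ± 109 to 2779 ± 321 CPM (log2 2.36 ± 0.19), and the amino acid transporter Slc7a5, which also accepts thyroid hormone, rose by 3.00 ± 0.14. The endocytic receptor Lrp1 fell (-2.45 ± 0.27). For Kl, 5 of 7 genes fell and 2 rose. The FGF receptors Fgfr1 (-1.76 ± 0.16), Fgfr2 (-4.32 ± 0.39) and Fgfr3 (-3.53 ± 0.29) fell, and the membrane proteases Adam10 (1.13 ± 0.12) and Adam17 (0.77 ± 0.15), which can shed klotho, rose. For folate, 3 of 11 genes fell, 2 rose and 6 did not pass. The proton-coupled folate transporter Slc46a1 fell (44.8 ± 11.4 to 4.65 ± 2.59 CPM, log2 -3.14 ± 0.38) as Folr1 did, the reduced folate carrier Slc19a1 did not pass (0.47 ± 0.21, adjusted p = 0.0921) except with the replicate block (0.48), and the efflux pump Abcg2 of brain endothelium rose (2.59 ± 0.14). The folate enzyme Mthfd1 fell (-1.27 ± 0.13). Of 4 genes linked to Otx2 in choroid plexus or nearby tissue, Igfbp2 (-3.37 ± 0.20) and Dkk3 (-2.84 ± 0.29) fell, Tgm2 (1.94 ± 0.19) rose and Wnt4 did not pass (-0.80 ± 0.42) except with the replicate block (-0.78). Of 7 channel and transporter partners 3 fell, 1 rose and 3 did not pass. Of the kinases that regulate Slc12a2, Stk39 fell (-2.68 ± 0.16), whereas Wnk1 (552.1 ± 113 and 506.4 ± 60.4 CPM, -0.13 ± 0.18) and Oxsr1 (-0.05 ± 0.30) did not pass, and the sign of both turned when Input 1222 was left out.

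Markers of other cells were measured beside these genes. Of 10 markers of ependymal cells, the ciliated lining of the ventricles next to the choroid plexus, 9 fell (median log2 -3.94), and all 9 met the deposited minimum in Input alone; Pltp, a lipid transfer protein that endothelium also makes, rose (2.63 ± 0.21). The median level left in Positive as a percent of Input was 8.54%, 13.4% and 5.78% for the 8 choroid plexus genes in 1222, 1223 and 1227. It was 6.1%, 9.59% and 6.65% for the ependymal list, 8.85%, 8.74% and 8.26% for 10 astrocyte markers, and 4.31%, 2.12% and 6.57% for 10 oligodendrocyte markers. All 10 astrocyte, 10 oligodendrocyte, 10 microglial and 8 neuronal markers fell. Over all genes 29.4% were called lower and 26.1% higher. The deposited minimum was met in Input alone, which favours a fall, by 7 of the 8 neuronal markers. It was met in Input alone by 2 of the astrocyte, 1 of the oligodendrocyte and 0 of the microglial markers. Of the cells of the choroid plexus core, 7 of 8 fibroblast markers fell and 1 rose, with 4 of the 8 at the minimum in Input alone. Cldn11 (1287 ± 624 to 45.6 ± 21.6 CPM) is counted in both the fibroblast and the oligodendrocyte list. Of 7 border macrophage markers 5 passed as higher, 1 as lower and 1 did not pass. The 1 that was lower, Ccr2, met the deposited minimum in Input alone. Ms4a7, 1 of the 5 that were higher, met it in Positive alone, which favours a rise. The median level of the 7 in Positive was 676%, 214% and 106% of Input in 1222, 1223 and 1227, and the fractions did not overlap for 1 of the 7. The number that passed as higher was 1 with the replicate block, 2 by limma, and 1 when Input 1222, Positive 1222 or Input 1223 was left out. It was 0 when Input 1227, or the whole of replicate 1222 or 1223, was left out. Foxj1 is counted both among the ependymal markers and among the other choroid plexus genes. These lists share libraries with the choroid plexus genes, and differences between lists were not tested. Of 6 genes listed for fenestrated endothelium 5 rose, among them Kdr, which is also counted as an endothelial marker. The 1 that fell was Ppap2b (1221 ± 130 to 105.1 ± 31.9 CPM, log2 -3.53 ± 0.24). Plvap, which marks the fenestrated capillaries of the choroid plexus and other leaky vessels, was low but rose, from 3.32 ± 1.61 to 20.1 ± 2.88 CPM (log2 2.48 ± 0.35, edgeR adjusted p = 0.000402). It met the deposited minimum in Positive alone, which favours a rise, as did Igfbp3, another of the 5 that rose. Retinal pigment epithelium is a tissue that shares Ttr, Otx2 and Kcnj13 with the choroid plexus, and its marker list leaves these genes out. Of the 8 genes of that list 1 was in the table (Rlbp1, also made by glia), and none of the 6 pineal genes was.

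**Figure D4:**
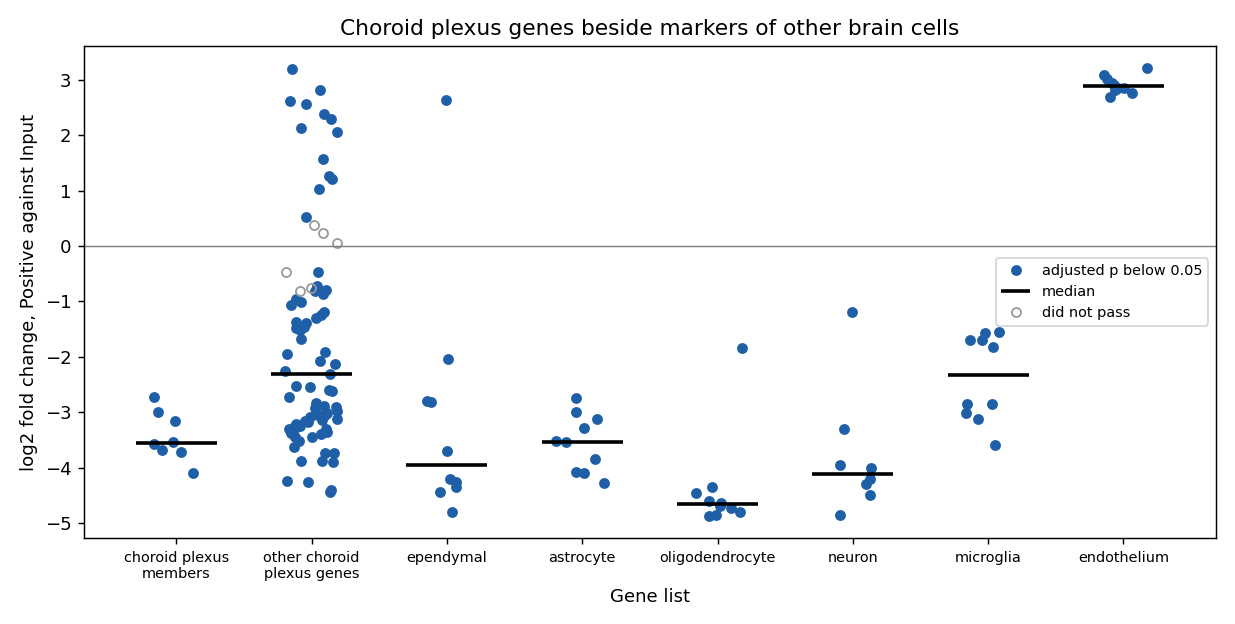
Log2 fold change of Positive against Input for the 8 choroid plexus members, 83 other choroid plexus genes and markers of 6 other cell types; filled points passed at adjusted p below 0.05, open points did not, and bars are medians. The members lie between -4.09 and -2.73, beside the astrocyte and ependymal markers, and the endothelial markers lie apart from them, above 0.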

How the data were processed

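The 6 libraries were made from total RNA with a directional kit, per the labels. The authors deposited 1 table with estimated counts per gene and log2 normalised values. Per the file headers it holds genes that reach a raw value of 50 in every library of 1 fraction or of both. Per the submitters' processing notes the build was mm10 and the tools include DESeq; no aligner, counter or strand setting is named in the labels. Coordinates are the table's own.

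The estimated counts were rounded, scaled with TMM factors and tested in edgeR 4.0.16 under R 4.3.3 by the quasi-likelihood test, with fraction as the single covariate. filterByExpr (minimum count 10) removed 0 genes. Fitted log2 fold changes use a prior count of 2, and calls an adjusted p below 0.05. The tests were checked on simulated data. The deepest library had 11 times the counts of the shallowest. Alternatives were DESeq2 size factors, library size alone, DESeq2 1.42.0, no filter, a minimum count of 50, a replicate block, limma 3.58.1 on the deposited log2 values, and leaving out each library or both of a number. For the border macrophage count these were added after seeing the data.

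Input and Positive libraries of 1 number deviated from their fraction means together (correlations across genes of 0.451 for 1222, 0.235 for 1223 and 0.296 for 1227, and at most 0.021 between numbers). On this basis libraries that share a number may be pairs; the printed tests carry no block, and the fit with the block is given where it changes a call. The series text speaks of biological replicates, but no label ties a number to an animal; p-values describe the spread between these libraries, which may be technical.

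The 8 genes and all lists were chosen with earlier results of these data known. Named were all family relatives, up to 4 partners per list by mean CPM, the 5 choroid plexus genes per list that were highest in Input and all that rose, up to 3 per marker list, the 5 nearest profiles and the nearest neighbours. Aqp1, Cldn2, Fgfr1, Plvap and Slc46a1 were chosen after their values were seen. Some genes that the rule would name are not reported here. Promoter windows are from RefSeq.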

Additional observations from a re-analysis of the deposited data

How the results depend on the processing

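The falls of the 8 choroid plexus genes kept their direction and their side of the threshold in each of 16 alternatives. The log2 fold change ranged from -3.26 to -2.20 for Ttr, -3.93 to -3.42 for Kl, -4.25 to -3.93 for Folr1, -4.04 to -3.45 for Clic6, -3.88 to -3.13 for Kcne2, -3.86 to -3.24 for Otx2, -3.41 to -2.78 for Kcnj13 and -3.48 to -2.68 for Slc4a5. The largest adjusted p was 0.00665, for Ttr without both libraries of 1222. With the replicate block all 8 genes were lower, as were 65 other choroid plexus genes and 10 family relatives; the calls it changed are given beside Rcan1, Slc4a7, Slc19a1, Wnt4 and the border macrophage markers. Over all alternatives 59 to 66 other choroid plexus genes, 8 to 10 relatives and 9 ependymal genes fell. Over all genes 2393 to 3666 were lower, against 3227 in the reported fit, and 1741 were higher without both libraries of 1227, against 2870. Scaling to library size alone moved the median log2 fold change of all genes from 0.03 to -0.13 and gave 3666 lower and 2165 higher. Kcnj12 ranged from -0.32 to 0.22 when libraries were left out, and was positive without Positive 1222 (0.13) and without Input 1223 (0.22). Wnk1 ranged from -0.25 to 0.045 when libraries were left out, the latter without Input 1222. Oxsr1 was at 0.009 with the replicate block and 0.14 by limma, and ranged from -0.464 to 0.331 when libraries were left out (-0.334 without Input 1223, 0.035 without Input 1222, 0.048 without both of 1222, 0.226 without Input 1227, 0.057 without Positive 1227 and 0.331 without both of 1227). The cause of these turns was not tested. The filter settings had little to remove, since the deposited table was already filtered. Depth limits Otx2 and Folr1 most, at 17 and 19.5 estimated counts in Positive 1223.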

Other observations

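The nearest genes of the deposited table on either side of the 8 choroid plexus genes did not share 1 direction. Of 15 such neighbours 7 fell and 3 rose, and 5 did not pass, beside 29.4% of all genes called lower and 26.1% higher. The near edge of Mthfd2, which encodes a mitochondrial folate enzyme on the other strand, lies 758 bases beyond the end of Slc4a5. Mthfd2 fell with Slc4a5 (22.4 to 3.32 CPM, log2 -2.67 ± 0.27, edgeR adjusted p = 5.5e-05). Dsg2, a desmosomal cadherin gene next to Ttr, fell as well (19.8 to 3.78 CPM, log2 -2.37 ± 0.32). Mthfd2 and Dsg2 were too low in Positive to meet the deposited minimum there. Both genes are in the table through Input alone, which favours a fall, so their falls add no support. Stard13, beyond Kl, rose (36.1 to 91.1 CPM, log2 1.31 ± 0.28, adjusted p = 0.00419), as did Exoc5 beyond Otx2 (57.3 to 109 CPM, log2 0.93 ± 0.15). The labels do not say whether the counting used strand, so reads of neighbours on opposite strands may be shared.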
